A study of Mus musculus with 16 samples.

Results

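The genes described here encode the mitochondrial respiratory chain, the mitochondrial ribosome and the machinery that imports proteins into mitochondria, in whole colon tissue of mice with and without colitis. They were chosen by symbol alone: every gene in the 4 deposited tables whose name begins with Nduf, Cox and a digit, Uqcr, Atp5, Sdha to Sdhd, mt-, Mrpl or Mrps and a digit, Timm and a digit, or Tomm and a digit. This gave 30 of the 5171 distinct genes in the tables. A table holds only genes that the authors' DESeq2 test passed at an adjusted p-value of 0.05 in that comparison, so a gene had to be called in at least 1 of the 4 comparisons to be among the 30. Of 222 protein-coding genes in the GENCODE annotation of the same genome build that match the name rule, 192 were therefore not analysed here.

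All animals were C57BL/6 mice. Wild type mice (WT) were compared with mice that carried a Vil-Cre mediated KO of Smarcad1, a chromatin remodelling ATPase. The villin promoter drives Cre in the intestinal epithelium, so the other cells of the tissue keep the gene, and the KO mice came from 1 line. Both genotypes, treated or not, received an enriched microbiota from donor mice of another facility, beginning 2 weeks before colitis was induced. Colitis was induced by 1% dextran sodium sulphate (DSS), a polymer toxic to the colon lining, given in drinking water for 15 days. The control groups held 3 libraries each (WT and KO) and the colitis groups 5 each, and RNA was precipitated with LiCl to remove DSS. The ages of these mice were not given in the sources used here.

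The respiratory chain passes electrons from nutrients to oxygen through complexes I to IV in the inner mitochondrial membrane, and ATP synthase uses the proton gradient this builds. Most subunits are encoded in the nucleus and imported through the TOM complex of the outer membrane and the TIM complexes inside, while a few core subunits are encoded by mitochondrial DNA and made on the mitochondrial ribosome. Colonocytes are known for their reliance on mitochondrial oxidation of butyrate, a product of gut bacteria.

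The values are the authors' group means, in log2 of RPM (reads scaled to the library total) and not corrected for gene length, so each gene was compared with itself. Values of single libraries were not used, and a difference between groups thus has no spread between mice and no test. The reading here is the difference of 2 means, beside whether the authors' test listed the gene. The lowest means in each column gave the size of the libraries (geometric means of 10100000 reads in WT control, 9770000 in KO control, 8000000 in WT colitis and 9870000 in KO colitis, to 3 digits). All 30 genes lay far above the level of 3 reads, with 206 to 9950 reads per library, and counting error alone gave a standard error (SE) of 0.010 to 0.077 on the log2 differences. That SE is a lower limit on the true error, because variation between mice is not in it. The mean of Smarcad1 was 5.77 in WT control and 5.68 in WT colitis, against 4.59 and 4.55 in the KO groups. Per kilobase of annotated exon in WT control, the highest log2 level of the 30 was 10.89 for mt-Nd6 and the next 8.62 for Sdhd, and the lowest was 2.66 for Mrpl33, whose annotated exons are the union over all its transcripts.

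Of the 30 genes, 5 were listed for colitis in WT and 29 in KO, and all of the listed ones but Cox7a1 rose, by at most 0.50 on the log2 scale. In WT, Mrpl13, Mrpl18, Mrpl27 and Mrpl33, all proteins of the large subunit of the mitochondrial ribosome, rose, and Cox7a1, a subunit of complex IV, fell. In KO, 28 of the 29 rose and Cox7a1 again fell. Mrpl18, Mrpl27, Mrpl33 and Cox7a1 were the 4 genes in both lists. One gene, mt-Nd6, was listed for KO against WT in control mice, and none of the 30 was listed for KO against WT in colitis.

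These counts have to be read against the whole tables. Over all 5171 genes, 63.1% were in the WT colitis list (36.6% higher and 26.4% lower) and 78.4% in the KO colitis list (44.8% higher and 33.6% lower), since entry to the tables required a call somewhere. Of the 30 genes, 16.7% were called for colitis in WT, a smaller share than that of all 5171 genes. For KO their share was 96.7%, a larger one. Against the annotation only the KO order is reversed. Of the 222 annotated genes that match the rule, 2.25% were listed in WT, below the 13.8% of all 21924 annotated protein-coding genes. The KO share was 13.1%, somewhat below the 16.6% of all. The 21924 genes were not filtered for expression in colon. The lists for KO against WT held 0.89% of the 5171 genes in control, 0.367% being lower in KO, and 1.08% in colitis. The 30 genes made up 13.5% of the annotated ones, while 21.2% of all annotated protein-coding genes were in the tables.

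The counts by complex were small, and their spread was not tested. For comparison, 21.2% of all annotated protein-coding genes were in the tables. The large subunit of the mitochondrial ribosome had 11 of its 49 annotated genes in the tables and the small subunit 4 of 29. The outer membrane import genes had 4 of 10 and the inner membrane import genes 1 of 15. Complex I had 4 of 38 subunits and 1 of 8 assembly factors, complex II 1 of 4 subunits and 1 of 4 assembly factors, and complex IV 2 of 18 subunits. The mitochondrial genome had 1 of 13 protein-coding genes. None of the 8 complex III subunits, the 16 ATP synthase subunits or the 9 complex IV assembly factors was in any table, nor was Atp5s, which the rule also matches. Absence from the tables says only that the authors' tests did not pass these genes, and it does not show that their levels were equal.

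**Figure D1:**
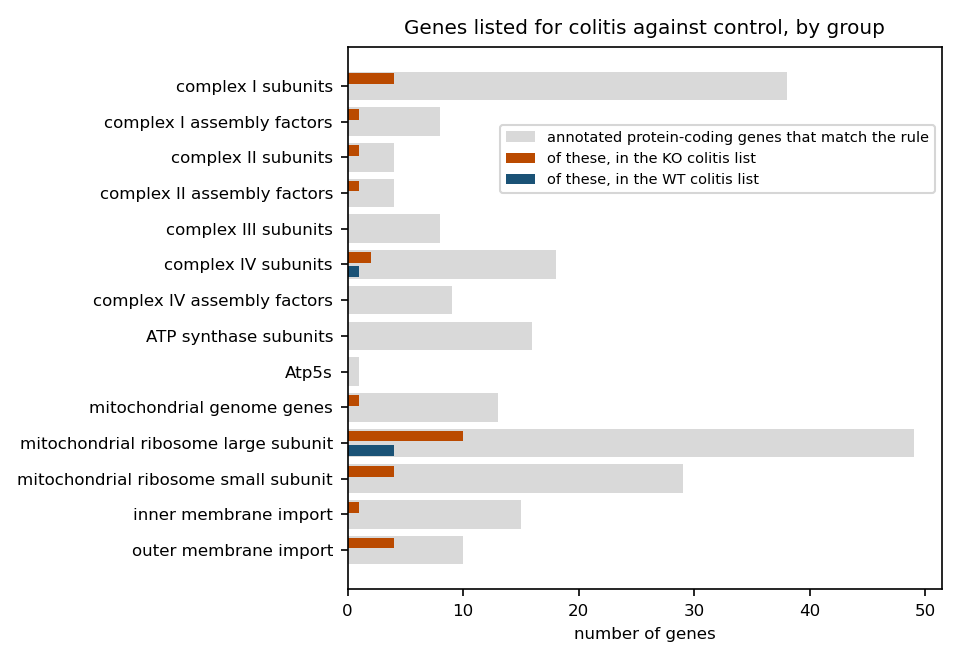
Number of protein-coding genes that match the name rule in each group (grey bars), with the number in the KO colitis list (orange) and the WT colitis list (blue); the horizontal axis counts genes. The orange bars reach 10 of 49 for the large ribosomal subunit and are absent for complex III, complex IV assembly and ATP synthase, and the WT list has bars in the large ribosomal subunit (4) and complex IV (1) alone.

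Most of the changes were smaller than is usual for genes of these lists. The 28 genes that rose in KO did so by 0.17 to 0.50 on the log2 scale, with a median of 0.29, whereas all genes that rose in the KO list had a median of 0.59. Only 17.8% of those genes rose by less than the median of the 28. In WT, the 4 listed genes rose by 0.30 to 0.50, with a median of 0.38 against 0.92 for all genes that rose in that list. A difference of at least 0.5 in size was reached in each genotype by 1 of the 30 genes upward (Mrpl27 in WT and Mrpl33 in KO) and 1 downward (Cox7a1 in both). Over all 5171 genes, 30.6% were higher by that much in WT and 29.9% lower, and in KO 27.9% were higher and 30.6% lower.

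Listed or not, 28 of the 30 means were higher in WT colitis than in WT control, with a median difference of 0.20, and 29 of 30 were higher in KO colitis than in KO control, with a median of 0.29. Of all 5171 genes, 54.0% had a higher mean in WT colitis and 54.3% in KO colitis. Most of the 30 genes entered the tables through a rise in KO colitis, so the KO count and median are partly set by that entry. The median over all 5171 genes was itself 0.13 in WT and 0.19 in KO. Relative to that median, 21 of the 30 were higher in WT and 27 in KO. Of the 28 listed risers in KO, Cox7a2l and Mrps5, each at 0.17, lay under the median of all genes, leaving 26 above it. In bulk tissue, fewer cells of a type and less RNA per cell cannot be told apart, and the same holds for a rise. Cell type markers moved as well. Among all 5171 genes, 36.6% were listed as higher and 26.4% as lower in WT, and 44.8% and 33.6% in KO. The 11 leukocyte markers in the tables (of 12) were all listed and higher in both genotypes, their summed level going from 629 to 1730 RPM in WT and from 644 to 1700 RPM in KO. The 4 colon epithelium markers in the tables (of 16), Car1, Car4, Slc26a3 and Aqp8, summed to 9010 RPM in WT control and 4470 RPM in WT colitis, and to 8630 and 4550 RPM in KO. All 4 means were lower in colitis, but Car1 was not listed in WT and Car4 not in KO. The other epithelium markers, among them Epcam, Krt8, Cdh1 and Muc2, were in no table, so the sums do not stand for the epithelium as a whole. The part of these shifts in the changes of the mitochondrial genes was not tested.

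**Figure D2:**
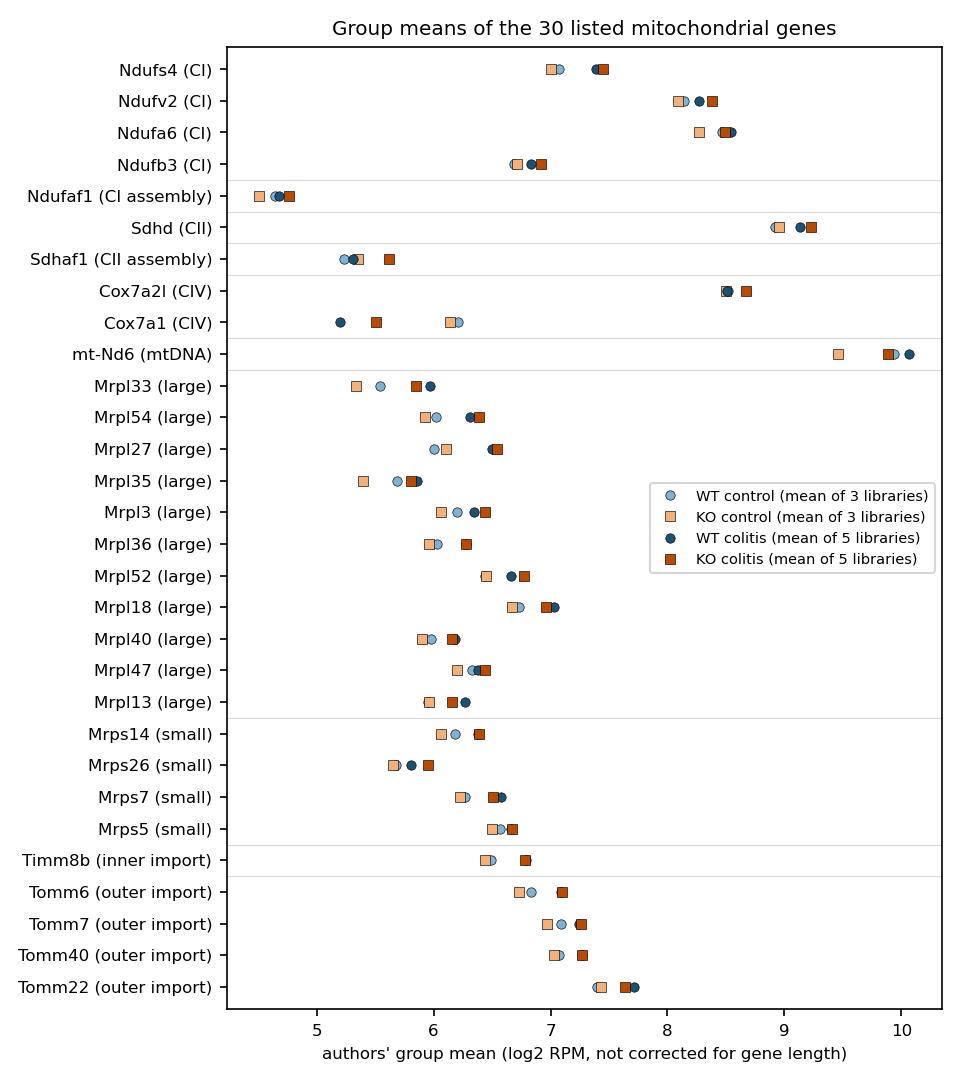
Authors' mean log2 RPM of each of the 30 genes in the 4 groups, with genes grouped on the vertical axis (CI, CII and CIV are the complexes, large and small the subunits of the mitochondrial ribosome); circles are WT, squares KO, light symbols control and dark symbols colitis, and each point is a mean of 3 or 5 libraries with no error shown. The dark symbols lie to the right of the light ones of the same genotype, before any centring, for all genes but Cox7a1 in both genotypes and Cox7a2l in WT.

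Complex I, the entry point for electrons from NADH, was represented by 4 subunits. Ndufs4, an accessory subunit, had the largest differences of the 4: its mean was 7.07 in WT control and 7.39 in WT colitis, and 7.0 in KO control and 7.45 in KO colitis. The colitis difference was thus 0.32 in WT (counting SE 0.029), where it was not listed, and 0.45 in KO (counting SE 0.028), where it rose. Ndufv2, a core subunit that holds an iron-sulphur cluster, differed by 0.13 in WT and rose by 0.29 in KO. Ndufa6, another accessory subunit, had means of 8.47 in WT control, 8.27 in KO control, 8.54 in WT colitis and 8.49 in KO colitis. Its KO control mean was the lowest of the 4, and both colitis means lay within 0.1 of WT control, so its rise of 0.22 in KO started from a lower control level. Ndufb3, from the membrane arm, differed by 0.14 in WT and rose by 0.21 in KO. The assembly factor Ndufaf1, which helps to build complex I, differed by 0.04 in WT and rose by 0.25 in KO, at a level with the fewest reads of the 30 genes (counting SE 0.068 in KO).

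Complex II, succinate dehydrogenase, links the tricarboxylic acid cycle to the chain. Sdhd, one of its membrane anchors, was the only one of the 4 subunit genes in the tables. Its mean went from 8.92 to 9.13 in WT and from 8.95 to 9.23 in KO, differences of 0.21 and 0.28, of which the second was listed. The assembly factor Sdhaf1 differed by 0.08 in WT and rose by 0.27 in KO. Of the exon bases of Sdhaf1, 69.6% overlap the antisense gene E130208F15Rik, and since it is not stated that counting used strand, reads of the pair cannot be told apart.

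Sdhd and Timm8b, a small chaperone of the space between the mitochondrial membranes, are transcribed away from each other. Their RefSeq start sites on chromosome 9 are 52 bases apart, so they share a start region. Timm8b had means of 6.49 in WT control, 6.79 in WT colitis, 6.44 in KO control and 6.78 in KO colitis. It differed by 0.31 in WT and rose by 0.34 in KO, beside 0.21 and 0.28 for Sdhd, so both lay higher in colitis in both genotypes. The 51 bases between the start sites, at chr9:50603850-50603900 of build GRCm38.p6, on the plus strand, are shown from RefSeq because they serve both genes, with the ETS core in capitals:
Sdhd and Timm8b: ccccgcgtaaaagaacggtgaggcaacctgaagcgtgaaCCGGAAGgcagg
ETS factors, among them GABP, are known to bind the promoters of many nuclear genes for mitochondrial proteins.

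Among the 300-base RefSeq promoter windows (250 bases before to 50 after the start) that 26 of the 30 genes had, 11 held the ETS core CCGGAAG on either strand, or 42.3%. Sdhd and Timm8b are both among the 11, and the core between their start sites lies in both windows. The share was 8.86% of all 32851 windows, 11.9% of the 20150 windows of protein-coding genes, and 31.7% (52 of 164) of the windows of genes that match the rule but were in no table. The YY1 core AAGATGGC was in 4 windows of the 26 (Mrpl35, Mrpl36, Mrps7 and Ndufs4), against 2.75% of all windows and 12.8% of the rule-matching genes outside the tables. The NRF1 core GCGCATGC was in 2 (Mrpl33 and Ndufa6), against 2.71% and 11.6%. The ERR core CAAGGTCA was also in 2, Sdhd and Timm8b, whose windows overlap, against 1.56% and 3.05%. The CArG box of smooth muscle genes and the MEF2 site were in none of the 26, and in 1.63% and 0.557% of all windows. The ETS and YY1 cores can overlap by the letters AAG, and a match of letters is no evidence of binding. The upstream bases of Ndufaf1 at chr2:119662835-119663084 and of Mrpl52 at chr14:54426659-54426908 are printed as examples with the ETS core in capitals, both from build GRCm38.p6 and on the strand of the gene (minus for Ndufaf1, plus for Mrpl52). Ndufv2, Ndufb3, Mrps14, Mrps5 and Tomm40, which rose in KO, had windows with none of the motifs. The stretch upstream of Cox7a1, the one gene that fell, at chr7:30183921-30184143 on the plus strand, holds none of them either:
Ndufaf1: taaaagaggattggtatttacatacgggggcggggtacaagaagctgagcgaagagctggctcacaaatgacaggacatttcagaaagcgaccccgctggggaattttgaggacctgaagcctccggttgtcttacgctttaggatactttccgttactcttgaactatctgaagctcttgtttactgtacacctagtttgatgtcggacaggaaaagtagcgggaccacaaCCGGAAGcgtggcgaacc
Mrpl52: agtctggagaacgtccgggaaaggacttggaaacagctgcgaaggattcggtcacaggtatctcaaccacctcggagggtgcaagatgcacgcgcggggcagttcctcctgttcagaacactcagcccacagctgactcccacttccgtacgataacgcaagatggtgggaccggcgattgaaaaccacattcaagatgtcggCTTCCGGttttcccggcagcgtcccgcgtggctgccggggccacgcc
Cox7a1: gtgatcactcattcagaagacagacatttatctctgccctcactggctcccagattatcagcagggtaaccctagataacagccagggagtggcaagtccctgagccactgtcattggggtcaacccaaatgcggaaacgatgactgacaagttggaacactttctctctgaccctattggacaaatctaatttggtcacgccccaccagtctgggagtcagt
The genes with and without the ETS core were both found among those that rose most in KO, Mrpl33 and Mrpl27 having it and Ndufs4 and Mrpl35 not.

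Complex IV, cytochrome c oxidase, held the one gene that fell. Cox7a1 encodes the isoform of subunit VIIa known from heart and skeletal muscle, and lies at chr7:30184144-30186078 on the plus strand in the tables (GRCm38). Its mean was 6.21 in WT control and 5.20 in WT colitis, where it fell by 1.01 (counting SE 0.048) to 0.496 of the control level, and it was 6.14 in KO control and 5.51 in KO colitis, where it fell by 0.63 (counting SE 0.044) to 0.648 of control. Both colitis means lay below both control means, and the WT colitis mean was the lowest of the 4. The difference between the falls, 0.38, was the largest between genotypes among the 30 genes, and it was not tested. Smooth muscle markers moved the same way: 6 of 10 were in the tables, with medians of -0.64 in WT (5 listed, all lower) and -0.55 in KO (4 listed, all lower). Their summed level was 6100 RPM in WT control and 3910 RPM in WT colitis, and 5600 and 3860 RPM in KO. The other markers, Tagln, Cnn1, Des and Actg2, were in no table, so the medians and sums do not stand for smooth muscle as a whole. Of all 5171 genes, 26.4% were listed as lower in WT and 33.6% in KO. Myh11, the smooth muscle myosin heavy chain, fell by 0.66 in WT and by 0.59 in KO. The 4 colon epithelium markers in the tables were also lower, with medians of -1.07 in WT and -0.76 in KO. Whether the fall of Cox7a1 has a part in common with either set of markers was not tested.

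Cox7a2l, a related protein, did not share the fall. Its means were 8.52 in WT control, 8.51 in WT colitis, 8.50 in KO control and 8.67 in KO colitis, so that the KO colitis mean stood above the other 3, which lay within 0.02 of each other. It rose by 0.17 in KO and differed by -0.01 in WT. Relative to the median of all genes the KO value was -0.02, so this rise does not survive centring. The isoform Cox7a2, and the isoform pairs of Cox4i, Cox6a, Cox6b and Cox8, Ndufa4 and Ndufa4l2, and the Atp5g genes were not in the tables.

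The mitochondrial genome was represented by mt-Nd6, which encodes a core subunit of complex I and is the one protein gene encoded on the light strand of mitochondrial DNA, at bases 13552 to 14070. Its means were 9.94 in WT control, 9.46 in KO control, 10.07 in WT colitis and 9.89 in KO colitis. The KO control mean stood apart, and the other 3 lay within 0.18 of each other. In control mice mt-Nd6 was lower in KO, the difference being -0.48 (counting SE 0.013) or -28.5%, and this was the only call between genotypes among the 30 genes. In colitis the KO mean was lower by 0.18 and not listed. In KO, mt-Nd6 rose by 0.43 in colitis, and in WT it differed by 0.13. The call between genotypes and the rise in KO use the same KO control libraries, so they are not independent of each other. The difference of the responses, 0.30, was the second largest of the 30 and was not tested. Of the exon bases of mt-Nd6, 2.7% overlap the annotated mt-Nd5 on the other strand. It is not stated that counting used strand, so reads from the other strand over mt-Nd6 cannot be told apart from its own. The authors removed reads over annotated ribosomal RNA because some samples, which are not named, held such contamination. Gm42418, a locus of ribosomal RNA reads, had means of 7.64 in WT control, 8.24 in KO control, 8.84 in WT colitis and 8.26 in KO colitis. It was thus higher by 0.60 in KO control than in WT control, and its part in the mt-Nd6 difference was not tested.

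The mitochondrial ribosome, which translates the messages of the mitochondrial genome, gave 15 of the 30 genes. All 15 means were higher in colitis in both genotypes, with a median of 0.21 in WT and 0.32 in KO, and with 4 listed in WT and 14 in KO; once the median of all genes is subtracted, Mrpl47, Mrps5 and Mrps26 are no longer above 0 in WT, nor Mrps5 in KO. Mrpl27 had means of 6.00 in WT control, 6.50 in WT colitis, 6.11 in KO control and 6.54 in KO colitis. Both colitis means lay above both control means, and it rose by 0.50 in WT (counting SE 0.041) and by 0.43 in KO (counting SE 0.039), or 41.8% and 34.8%. Mrpl33 had means of 5.54 in WT control, 5.97 in WT colitis, 5.34 in KO control and 5.85 in KO colitis. It rose by 0.44 in WT and by 0.50 in KO, the largest rise in KO of the 30 genes, and 35.4% and 41.6% when expressed as percent. Mrpl18 rose by 0.30 in WT and 0.29 in KO, nearly the same. Of its exon bases, 10.1% overlap Tcp1 on the other strand.

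Mrpl13 was the one of the 30 genes listed in WT alone. Its means were 5.95 in WT control, 6.27 in WT colitis, 5.96 in KO control and 6.16 in KO colitis, so it rose by 0.33 in WT and differed by 0.19 in KO. The other 11 ribosomal genes were listed in KO alone. Mrpl47 had the smallest difference of the large subunit in WT, 0.05, and rose by 0.24 in KO. Of its exon bases, 24.2% overlap Actl6a and Ndufb5. Mrpl35 had means of 5.69 in WT control, 5.86 in WT colitis, 5.40 in KO control and 5.81 in KO colitis. Its KO control mean was 0.29 below WT control, and the 2 colitis means differed by 0.04, so the rise of 0.41 in KO ended near the level of WT colitis. Mrpl3, Mrpl36, Mrpl40, Mrpl52 and Mrpl54 differed by 0.15 to 0.29 in WT and rose by 0.27 (Mrpl40) to 0.47 (Mrpl54) in KO.

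In the small subunit, Mrps14 had the largest rise in KO, 0.33, beside a difference of 0.20 in WT. Mrps7 had the largest difference in WT, 0.31, and rose by 0.28 in KO. Mrps5 had the smallest difference in both genotypes, 0.10 in WT and a rise of 0.17 in KO, which is at -0.02 once the median of all genes is subtracted. Mrps26 differed by 0.12 in WT and rose by 0.30 in KO.

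Protein import gave 5 genes, with medians of 0.26 in WT and 0.29 in KO. All 5 rose in KO and none was listed in WT. Tomm22, a receptor of the outer membrane complex, had means of 7.40 in WT control, 7.71 in WT colitis, 7.43 in KO control and 7.64 in KO colitis. Its difference was larger in WT, 0.31, than in KO, 0.22, although KO was where it was listed. Tomm40, the channel of the complex, had means of 7.07 in WT control, 7.27 in WT colitis, 7.03 in KO control and 7.27 in KO colitis, so both genotypes reached the same level. Tomm7, a small subunit, differed by 0.15 in WT and rose by 0.29 in KO. Tomm6, another small subunit, differed by 0.26 in WT and rose by 0.37 in KO, but 84.2% of its exon bases overlap Gm21981, Tomm6os and Usp49, so its value is uncertain. Timm8b, described above with Sdhd, shares 15.6% of its exon bases with Nkapd1.

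**Figure D3:**
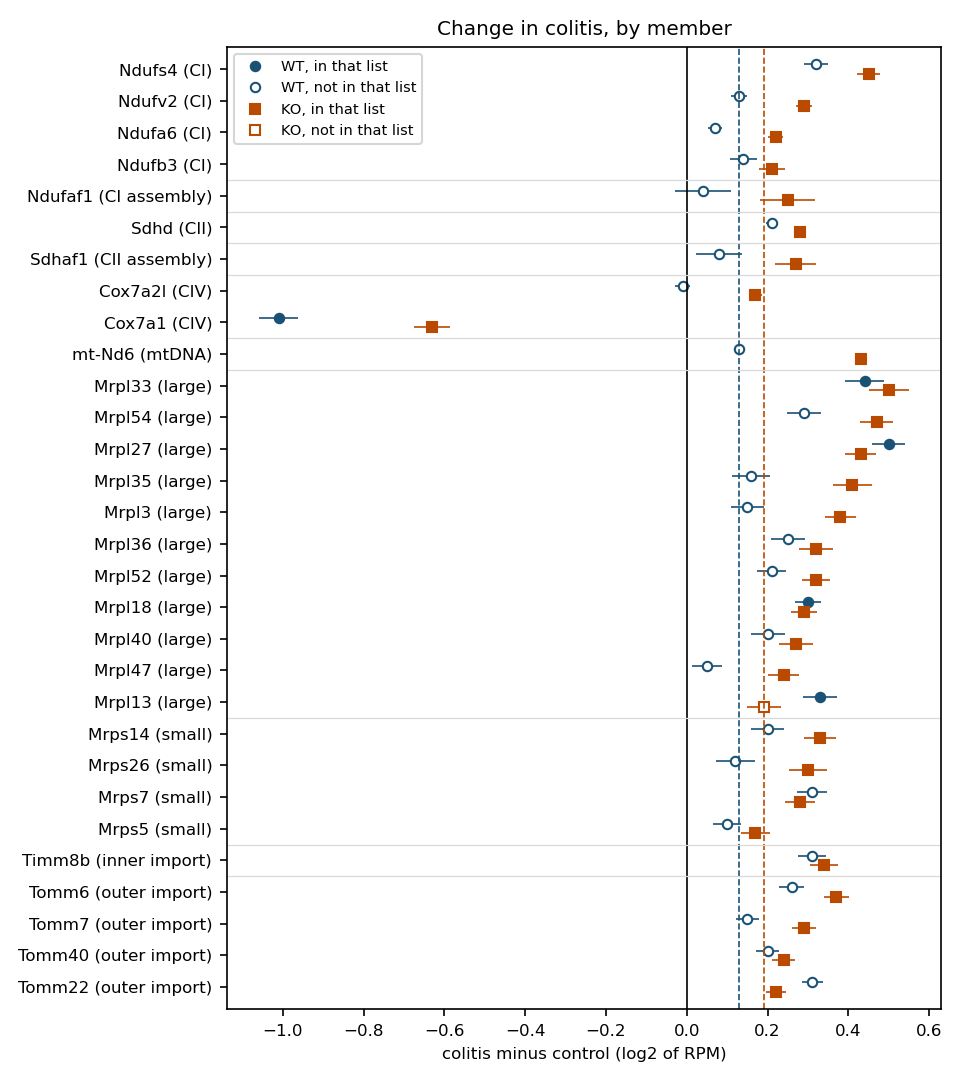
Difference between the colitis and control means (log2 of RPM) for each of the 30 genes in WT (blue circles) and KO (orange squares); filled symbols are in the authors' list for that genotype, open ones are not, bars are the counting SE alone, and dashed lines mark the median of all 5171 genes (0.13 in WT and 0.19 in KO). Nearly all orange symbols are filled and lie between 0.17 and 0.50, and Cox7a1 stands alone on the left at -1.01 and -0.63.

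The KO difference minus the WT difference was above 0 for 25 of the 30 genes, with a median of 0.12 and a range from -0.13 for Mrpl13 to 0.38 for Cox7a1, which is among the 25 because it fell less in KO. Over all 5171 genes the median was -0.02. Of the 30 genes, 25 rose and were listed in KO alone, and these are set beside all 923 genes of that kind. For the 923, the median was 0.34 in KO and 0.21 in WT, the KO difference being the larger in 89.6%. The 25 mitochondrial genes of that kind had medians of 0.29 and 0.16, with the KO difference larger in 23. Genes listed in KO alone tend to have the larger difference in KO. The count above 0 over the 30 genes is thus partly set by how they entered the tables. For the same reason the median over all 5171 genes is not a like comparison. The difference between the responses was not tested, since the deposited tables analysed here give 1 mean per group.

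Between genotypes, the 30 genes differed little. In control mice 23 of 30 were lower in KO, with a median of -0.06 beside 0.00 for all genes and a range from -0.48 for mt-Nd6 to 0.12 for Sdhaf1. The lowest after mt-Nd6 were Mrpl35 at -0.29, Ndufa6 at -0.19 and Mrpl33 at -0.19, none of them listed. In colitis 19 of 30 were higher in KO, with a median of 0.02 beside -0.01 for all genes. The highest were Cox7a1 and Sdhaf1, each at 0.32, and the lowest mt-Nd6 at -0.18. The KO minus WT difference in control and the KO response both use the KO control mean, so they are not independent of each other. Most of the 30 genes entered the tables through a rise in KO colitis, which a low KO control mean favours. The count of 23 lower in KO control is thus partly set by that entry.

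**Figure D4:**
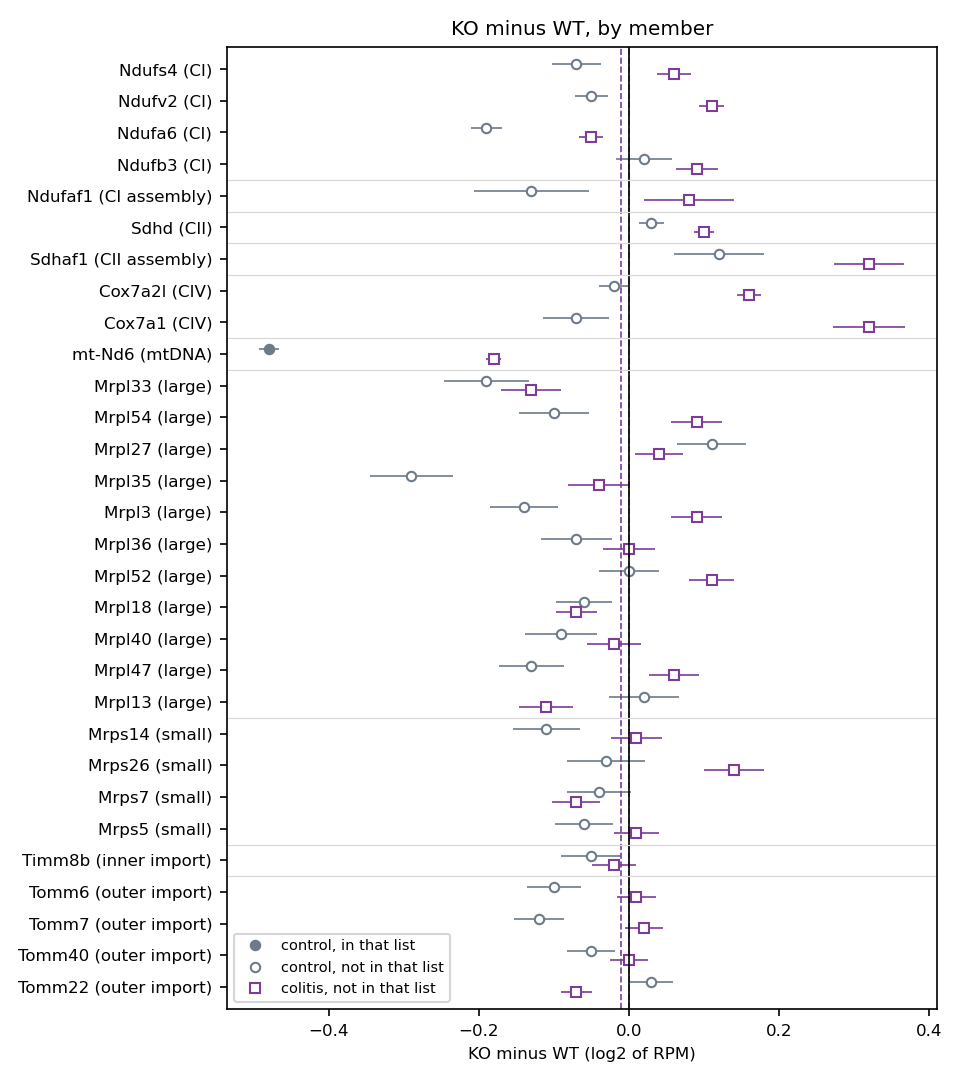
Difference between the KO and WT means (log2 of RPM) for each of the 30 genes in control mice (grey circles) and in colitis (purple squares); the single filled symbol is mt-Nd6 in control, the one value in a list, bars are the counting SE alone, and dashed lines mark the medians of all genes (0.00 and -0.01). Most grey circles lie left of 0, as 23 of 30 do, and all purple squares but Cox7a1 and Sdhaf1, both at 0.32, lie within 0.18 of 0 on either side.

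The proteins of the cytosolic ribosome gave values like those of the mitochondrial one. Of 98 annotated genes for them, 48 were in the tables, 47 of which were listed and higher in KO colitis and 2 in WT colitis. Their medians were 0.16 in WT and 0.31 in KO, beside 0.21 and 0.32 for the 15 mitochondrial ribosomal genes. In control mice their median for KO minus WT was -0.06, the same as that of the 30 genes. Of all 5171 genes, 36.6% were listed as higher in WT colitis and 44.8% in KO colitis. Both ribosomal sets entered the tables mostly through the KO colitis list, so the likeness of their values is partly set by that entry.

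Other genes of mitochondrial energy metabolism, taken from lists of pathway members, moved in both directions in colitis. As background for this and the next lists, 21.2% of all annotated protein-coding genes were in the tables. Of all 5171 genes, the WT list held 36.6% as higher and 26.4% as lower, and the KO list 44.8% and 33.6%. None of 13 genes of the tricarboxylic acid cycle was in the tables. Of 23 genes for fatty acid and butyrate oxidation 5 were, of which the WT list held 1 as higher and 3 as lower, and the KO list 1 as higher and 4 as lower. Acsm3, a medium-chain acyl-CoA synthetase, fell by 0.83 in WT and by 0.49 in KO, and Acaa2, the thiolase that ends a round of beta-oxidation, differed by -0.53 and fell by 0.48. Slc16a1, a transporter of butyrate and lactate, fell by 0.53 and 0.50. Acadl, the long-chain acyl-CoA dehydrogenase, rose by 0.55 and 0.50, while Acadm, its medium-chain relative, fell by 0.52 and 0.41.

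Of 12 genes for the entry of pyruvate into mitochondria 4 were in the tables. Pdk4 and Pdk2, kinases that inhibit pyruvate dehydrogenase, had differences of -0.96 and -0.70 in WT, of which Pdk2 was listed, and both fell in KO, by 1.35 and 0.67. Pdk1, another such kinase, differed by 0.34 in WT and rose by 0.49 in KO. Pcx, pyruvate carboxylase, fell by 0.64 in WT and differed by -0.39 in KO.

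Of 22 regulators of mitochondrial biogenesis, 5 were in the tables, of which the WT list held 4, all lower, and the KO list 1 higher and 1 lower. As lower, the WT list held 26.4% of all 5171 genes and the KO list 33.6%. Esrrg, an orphan nuclear receptor, fell by 2.34 in WT, from 4.11 to 1.78, and differed by -0.97 in KO, from 4.11 to 3.14. Ppargc1a, the coactivator known for driving biogenesis, fell by 1.52 in WT, from 6.53 to 5.01, and differed by -0.61 in KO, from 6.18 to 5.57. Neither was listed in KO, and the difference between the genotypes was not tested. Ssbp1, which binds single-stranded mitochondrial DNA, differed by 0.20 in WT and rose by 0.29 in KO, much as the 30 genes did, and Twnk, the mitochondrial helicase, fell by 0.49 in WT and differed by -0.28 in KO.

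Of 31 genes for electron carriers and for assembly that the name rule misses, 5 were in the tables, of which the WT list held 1 higher and 1 lower, and the KO list 4 higher and 1 lower. Cycs, cytochrome c, rose by 0.54 in WT and 0.59 in KO, more than any of the 30 genes. Coq7, an enzyme of ubiquinone synthesis, differed by 0.38 in WT and rose by 0.37 in KO. Coq8a, a kinase-like protein for ubiquinone synthesis, fell by 1.00 in WT and fell by 0.76 in KO. Lrpprc, which stabilises mitochondrial messages, differed by 0.00 in WT and rose by 0.18 in KO.

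**Figure D5:**
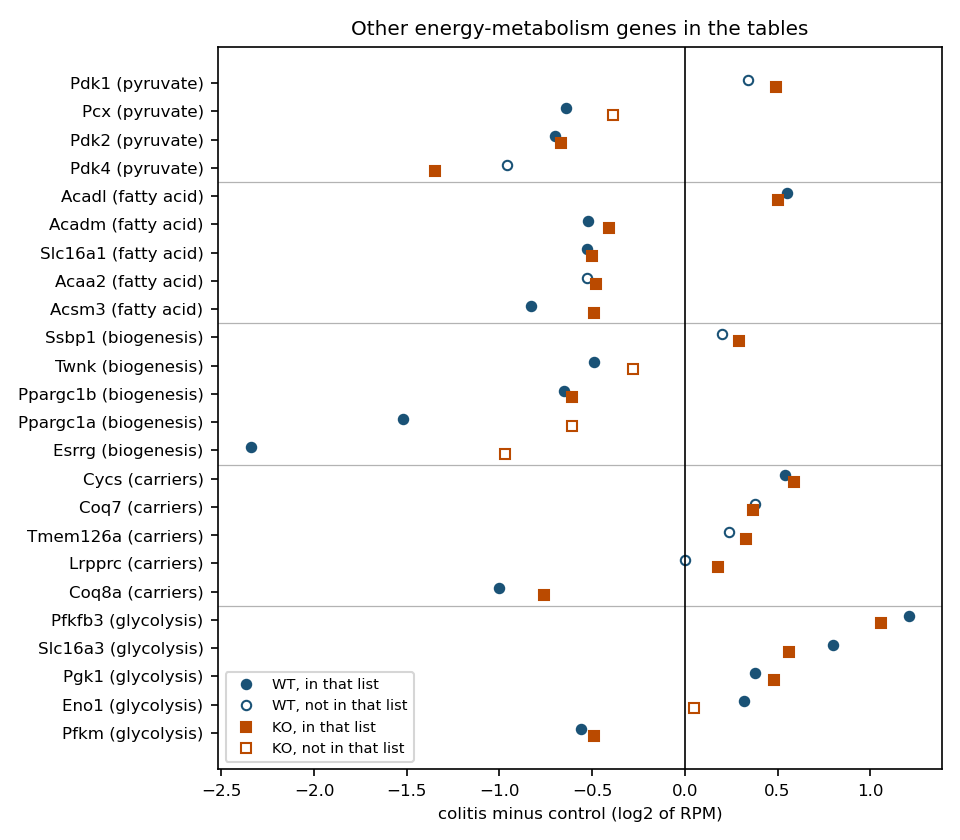
Difference between the colitis and control means (log2 of RPM) in WT (blue circles) and KO (orange squares) for the genes of 5 other energy-metabolism lists that were in the tables; filled symbols are in the authors' list for that genotype and open ones are not, with no error shown. Esrrg and Ppargc1a are furthest left in WT, at -2.34 and -1.52, and Pfkfb3 furthest right, at 1.21.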

How the data were processed

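RNA from 16 whole colon libraries was sequenced on BGISEQ-500 by the study. The authors mapped reads to GRCm38 with HISAT2 (2.1.0 per the labels), kept uniquely mapped reads, removed those over annotated ribosomal RNA, counted reads over exons in SeqMonk and ran DESeq2. The 4 deposited tables hold genes under an adjusted p-value of 0.05, the authors' adjusted p-value, which was used here only as membership of the table, and log2 group means made by the authors from RPM. Library sizes were estimated from the steps of the lowest means, all of which fell on whole reads once a count of 0 was taken as 0.9 read, and the counting SE was computed from them for Poisson counts. The estimate was tested on simulated data made with the same 0.9 read and Poisson counts, so that test cannot check either assumption. Depth per single library is unknown. Such errors cover counting only, and PCR duplicates are not independent molecules.

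Differences are of group means, by genotype or by treatment, with groups taken from the sample titles. The members, the complex and pathway lists, and the threshold of 0.5, were chosen with earlier results of these data known. Named genes are, for each complex or group, those with the lowest and highest colitis difference in each genotype, those listed between genotypes, isoform families, and from each other list the 2 lowest and 2 highest in WT. Ndufv2, Mrpl18, Mrpl35, Mrps26, Tomm40, Slc16a1, Pgk1, Myh11, Aplp1, Kirrel2, Gm42418 and the genes named for a motif were added after their values were seen. Annotation was GENCODE M21, which has the coordinates of 25 of the 30 genes, and promoters were RefSeq. Alternatives were a threshold of 1, centring on all genes, means for medians, a filter at 3 reads, genes in both colitis lists and, chosen after seeing the data, leaving out genes with over 10% exon overlap. Python 3.11.15, pandas 2.3.3, numpy 2.4.6 and matplotlib 3.10.9 were used.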

Additional observations from a re-analysis of the deposited data

How the results depend on the processing

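The deposited tables give 1 mean per group, and values of single libraries were not used here, so no library was left out in turn and no other test or normalisation was run. No paired analysis was possible because the columns are group means that carry no replicate numbers. For the 19 summary values of the 30 genes, 79 alternatives were computed, of which 57 left the value within 0.1 on the log2 scale or a count within 1.5 times. A filter at 3 reads and leaving out the 6 genes with more than 10% exon overlap moved none of them. Asking for a difference of at least 0.5 left 2 of the 5 genes listed in WT, 2 of the 29 in KO and 0 of the 1 listed between genotypes in control. With a threshold of 1, no gene was higher in either genotype (0), and 0 were lower in KO. Centring on all genes left 0 genes higher by 0.5 in WT and 0 in KO. It moved the medians in WT to 0.00 for nuclear respiratory chain subunits, 0.09 for the mitochondrial ribosome, 0.13 for import and 0.00 for the mitochondrial genome, and in KO to 0.02, 0.13, 0.10 and 0.24. By the mean in place of the median, the respiratory chain subunits in WT turned to -0.02 (from 0.13), since Cox7a1 is 1 of the 7. With only genes in both colitis lists, the respiratory chain value is that of Cox7a1 alone, -1.01 in WT and -0.63 in KO, the ribosome medians were 0.44 and 0.43, and the KO minus WT median in colitis turned from 0.02 to -0.02. Import and the mitochondrial genome had no gene in both lists, so 4 such values could not be computed.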

Other observations

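Glycolysis makes ATP without mitochondria. Of 17 genes taken for it, among them a regulator and a lactate exporter, 5 were in the tables, and the others were not called. Of the 5, the WT list held 4 higher and 1 lower, and the KO list 3 higher and 1 lower. Over all 5171 genes, 36.6% were listed as higher in WT and 44.8% in KO. Pfkfb3, which makes an activator of phosphofructokinase, rose by 1.21 in WT and by 1.06 in KO, and Slc16a3, a lactate exporter, rose by 0.80 and 0.56. Pgk1, phosphoglycerate kinase, rose by 0.38 and 0.48. Eno1, an enolase, rose by 0.32 in WT and differed by 0.05 in KO. Pfkm, the muscle isoform of phosphofructokinase, fell by 0.56 and 0.49. Of 10 stromal markers 7 were in the tables, of which the WT list held 7 and the KO list 5, all higher, with medians of 0.93 and 0.55.

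Cox7a1 and Sdhaf1, which had the highest KO minus WT differences in colitis of the 30 genes (0.32 each, neither listed), both lie on chromosome 7, 135 kb apart. In control mice the KO minus WT difference was -0.07 for Cox7a1 and 0.12 for Sdhaf1, also not listed. Sdhaf1 is 111 kb and Cox7a1 249 kb from Aplp1, which had a KO mean above the WT mean by 1.78 in control and 1.49 in colitis. Kirrel2, at 124 and 261 kb, had means of 2.11 in KO control and 1.60 in KO colitis, while both WT means lay under the level of 3 reads. This neighbourhood was looked at after the values were seen, and whether the positions bear on the differences was not tested.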
